A study of Mus musculus with 12 samples.

Results

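Hedgehog and Wnt signals that pass between the capsule of the adrenal gland and its cortex were followed through 9 genes, Shh, Ptch1, Gli1, Wnt4, Ctnnb1, Axin2, Lef1, Fzd1 and Apc. The genes were chosen by name, and every probe that the platform's annotation gives to them was used, which made 12 probes for the 9 genes among 17882 named genes tested. RNA of adrenal glands from mice of 1 transgenic line with extra copies of Ftz-F1 (Nr5a1, the gene of the nuclear receptor SF-1), carried on a YAC, was hybridised on 2-colour arrays against RNA of a wild-type littermate matched for sex and age. The older group was 4 months old with 2 transgene copies (pairs 1, 3 and 5), and the younger was 10 days old with 1 copy (pairs 11, 13 and 15), each pair being named by the number of its transgenic mouse. Pairs 5 and 15 were female and the others male. Each pair was measured on 2 arrays with the dyes exchanged, so the study holds 12 arrays but 6 independent pairs. Copy number and age change together and cannot be told apart, and no strain is named in the labels.

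In the Hedgehog pathway a secreted ligand such as Shh releases the activator Smo from inhibition by its receptor Ptch1, and Gli transcription factors then switch on targets that include Gli1 and Ptch1 themselves. In the canonical Wnt pathway a ligand that binds a Frizzled receptor stops a complex of Apc, Axin and kinases from destroying beta-catenin (Ctnnb1), which then acts in the nucleus with Tcf and Lef factors on targets such as Axin2. In the mouse adrenal, Shh is made by subcapsular cortical cells and is received by Gli1-expressing cells of the capsule, while Wnt4 and beta-catenin activity mark the outer cortex, the zona glomerulosa.

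All values are log2 ratios of the 2 channels after removal of each array's dye trend. The labels name the dye of each sample but not which channel is the numerator, so signs are reported as deposited. A high or low ratio therefore does not tell which mouse of the pair had the higher level. The arrays of a pair ran the same way: with the mean of each dye orientation removed, they correlated at 0.24 to 0.68 over genes, against -0.28 to 0.12 for arrays of different pairs. The gene of the transgene, Nr5a1, was at -0.46, 0.11 and -0.22 in 4-month pairs 1, 3 and 5, and at -0.57, -0.65 and -0.79 in 10-day pairs 11, 13 and 15. Its mean over the 6 pairs was -0.43 (SE 0.09), with an adjusted p of 0.104 in limma. Whether its probe also reads the transgene's transcript is not stated by the labels. Spots of the steroidogenic genes Star and Cyp11a1 were brighter than 98.6% and 98.3% of spots, and those of the chromaffin genes Th and Dbh brighter than 88.1% and 88%. The pairs differed in markers of other cell types. The median of 6 hepatocyte markers was 1.77 in pair 11, that of 6 adipocyte markers 1.89 in pair 15, and that of 5 lymphocyte markers -1.98 in pair 3. In the other 5 pairs each, these lists lay from 0.05 to 0.39, from -0.31 to 0.29 and from -0.10 to 0.04. The macrophage median was -1.20 in pair 3, and the erythroid median was -1.28 in pair 13 and 1.26 in pair 15. The chromaffin median was 0.51 over the 6 pairs, lowest in pair 11 (-0.04) and highest in pair 15 (0.80). The list was not uniform. Pnmt and Npy were positive in 6 of 6 pairs, but Chga was negative in pairs 1, 3, 5 and 11, between -0.35 and -0.30. Chgb lay between -0.26 and 0.15, and Dbh between -0.63 in pair 11 and 0.88 in pair 15. In whole glands, fewer cells of a type and less RNA per cell cannot be told apart.

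None of the 9 genes differed between transgenic and wild-type mice past the threshold, an adjusted p of 0.05 in limma over all 21513 features. Over all 6 pairs their means lay between -0.46 for Wnt4 and 0.25 for Gli1, 4 were positive and 5 negative, as also at 4 months, and the lowest adjusted p was 0.34. The threshold was passed by 0.0558% of all features there, 12 in all, and 47.1% of features had a positive mean. At 10 days 6 of the 9 were positive, where 48.6% of features were, and at 4 months 48% of features were positive. The median of the 9 genes was -0.00, against -0.01 for all features. At an unadjusted p under 0.05, none of the 9 stood over all 6 pairs, where 15% of features did. At 4 months 1 of 9 did, Wnt4, where 12.3% of features did, and at 10 days 0 of 9, where 8.34% did. No feature at all passed after adjustment at 4 months (0%) or at 10 days (0%), with 2646 and 1794 at an unadjusted p under 0.05 in limma. After adjustment the ordinary linear model also called 0 at either age.

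**Figure D1:**
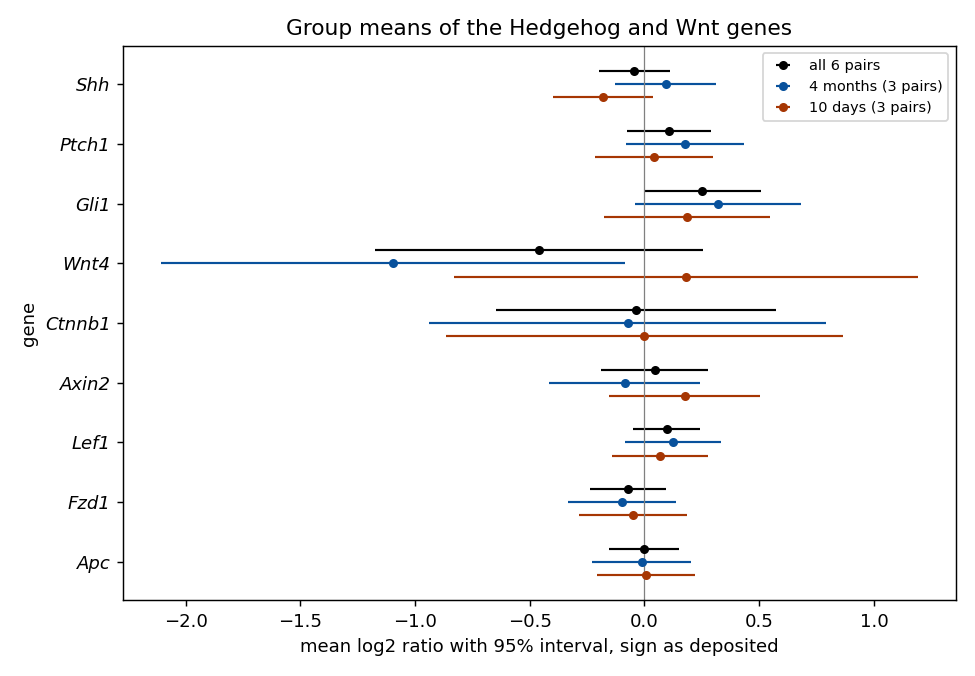
Mean log2 ratio (horizontal axis, sign as deposited) of each gene with its 95% interval from limma, for all 6 pairs, the 3 pairs of 4 months and the 3 pairs of 10 days. Wnt4 and Ctnnb1 have the widest intervals. The 4-month interval of Wnt4 (-2.11 to -0.08) is not adjusted for the number of features. It uses limma's SE, which draws on the spread of all features.

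Wnt4, a Wnt ligand of the outer adrenal cortex, varied more between pairs than any other of the 9 genes. It was at -2.19, -0.70 and -0.40 in 4-month pairs 1, 3 and 5, and at -0.75, -0.12 and 1.41 in 10-day pairs 11, 13 and 15. The 4-month pairs were thus all negative, while the 10-day pairs lay on both sides of zero and overlapped with them. The ratio of pair 1 stood on both of its arrays, at -1.89 with the transgenic sample in Cy3 and -2.49 with it in Cy5, and so did that of pair 15, at 1.42 and 1.40. In pair 11 the arrays differed more, at -1.22 and -0.29. Wnt4 had the same sign on both arrays in 6 of 6 pairs.

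The SD of Wnt4 over the 6 pairs was 1.16, above that of 99.4% of 20356 features with all pairs measured, whose median was 0.22. The dye swaps gave a technical SD of 0.25 for a pair value of Wnt4, so the pairs spread 4.67 times as widely as the swaps, a ratio above that of 95.3% of features (median 1.37). The 4-month mean was -1.10 (SE 0.44, 95% interval -2.11 to -0.08), with an unadjusted p of 0.0371 and, adjusted in limma, of 0.375. Limma's SE draws on the spread of all features, which narrows it for a gene as variable as Wnt4. Over all 6 pairs the unadjusted p of Wnt4 was 0.177 in limma and 0.341 in the ordinary linear model. The 10-day mean was 0.18 (SE 0.44, 95% interval -0.83 to 1.19, adjusted p = 0.949 in limma). Single pairs set both: without pair 1 the 4-month mean was -0.55 (adjusted p = 0.78), and without pair 15 the 10-day mean was -0.44 (adjusted p = 0.829). Over all 6 pairs the mean of -0.46 became -0.19 without pair 1, -0.22 without pair 11 and -0.77 without pair 15. The adipocyte markers were high in the same pair 15 as Wnt4 (1.89), and the erythroid markers were too (1.26), and their part in the result was not tested. In pair 1, where Wnt4 was lowest, the medians of the marker lists lay between -0.69 (zona fasciculata) and 0.51 (erythroid). Single markers there went farther, with Abcb1b at -2.13, Cyp21a1 at -1.41, Hbb-b1 at -1.20, Cyp11a1 at 1.14, Cd79b at 1.31 and Star at 1.48. Their part in the value of Wnt4 was not tested.

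The start of Wnt4 is shown because the gene had the widest spread of the 9. It is a RefSeq window in build GRCm38.p6 at chr4:137277385-137277684, plus strand, spanning the annotated start, with 84.3% G and C and more CG dinucleotides (51) than 99.3% of such windows.
Wnt4: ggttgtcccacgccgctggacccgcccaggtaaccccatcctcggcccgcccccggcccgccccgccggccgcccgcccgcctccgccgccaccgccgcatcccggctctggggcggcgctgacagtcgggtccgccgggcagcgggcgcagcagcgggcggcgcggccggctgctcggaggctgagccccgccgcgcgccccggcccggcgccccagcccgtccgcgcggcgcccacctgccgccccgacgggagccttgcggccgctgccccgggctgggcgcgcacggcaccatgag
Elements were searched on both strands in 10 start windows of 6 genes (Wnt4, Ctnnb1, Axin2, Lef1, Fzd1 and Ptch1). For Shh, Gli1 and Apc no window was searched. Windows of the 9 genes on 1 chromosome were left out, although the 32851 windows used for comparison kept that chromosome. The SF-1 element CAAGGTCA was in none of the 10 windows, against 1.56% of 32851 windows. The GLI element GACCACCCA was in none of the 10 either, against 0.253%. Of the Tcf and Lef elements CTTTGAA or CTTTGAT or CTTTGTA or CTTTGTT, 1 of the 10 windows, at Lef1, held a match, against 16.9% of all windows. A match is a run of letters and not a measured site.

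Ctnnb1, which encodes beta-catenin, the central effector of the pathway, also varied widely between pairs on arrays that agreed. It was at -0.87, 0.66 and -0.00 in 4-month pairs 1, 3 and 5, and at -1.13, 0.46 and 0.67 in 10-day pairs 11, 13 and 15. Each age thus held a clearly negative pair and a clearly positive pair. The arrays of pair 11 were at -1.03 with the transgenic sample in Cy3 and -1.23 with it in Cy5, those of pair 1 at -0.88 and -0.86, and those of pair 15 at 0.77 and 0.57. The arrays of pair 5 had opposite signs, at 0.32 and -0.33. The SD over pairs was 0.79, above that of 97.9% of features, and 6.70 times the technical SD of 0.12, a ratio above that of 98.2% of features.

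The group means of Ctnnb1 were therefore near zero and uncertain. The 4-month mean was -0.07 (SE 0.37, 95% interval -0.94 to 0.79) and the 10-day mean -0.00 (SE 0.37, 95% interval -0.87 to 0.86), with adjusted p of 0.95 and 0.999 in limma. Without pair 1 the 4-month mean was 0.33 and without pair 3 it was -0.44, and without pair 11 the 10-day mean was 0.56 and without pair 15 it was -0.33. None of these passed. Pair 11, with the lowest Ctnnb1 ratio, is the pair with high ratios of the hepatocyte markers (Alb, the albumin gene, at 6.73). Pair 3, with a high Ctnnb1 ratio, is the one with low ratios of the lymphocyte markers (Cd79b, a B-cell receptor gene, at -5.18). In pair 1, with a Ctnnb1 of -0.87, the medians of those lists were at 0.26 and -0.02. Their single genes lay there from -0.47 (Alb) to 1.15 (Ahsg) and from -0.29 (Cd79a) to 1.31 (Cd79b). Their part in the result was not tested.

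**Figure D2:**
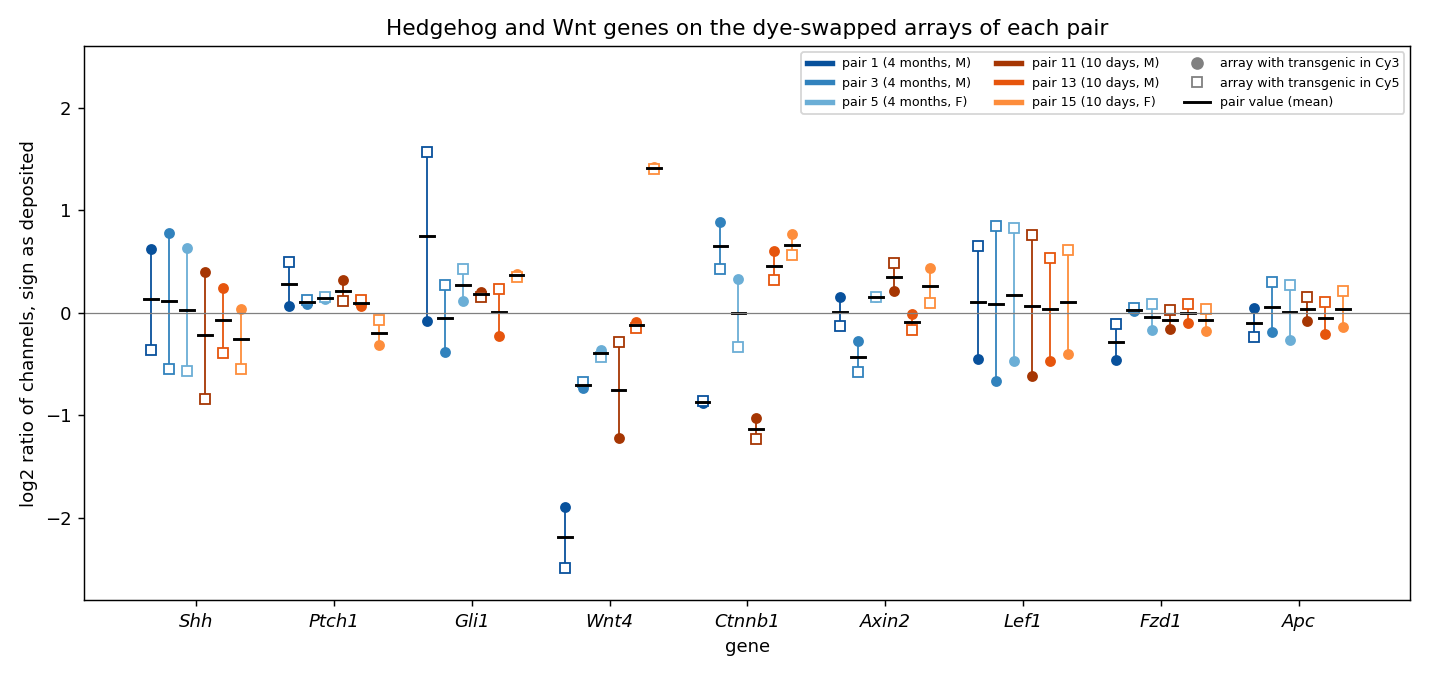
Log2 ratio (vertical axis, sign as deposited) of the 9 genes on both arrays of each pair, with 4-month pairs left of 10-day pairs, filled circles for the transgenic sample in Cy3, open squares for it in Cy5 and black bars for the pair value. Wnt4 and Ctnnb1 differ more between pairs than between the arrays of most pairs, with wide gaps between arrays for Wnt4 in pairs 1 and 11 and for Ctnnb1 in pair 5, whereas Lef1 and Shh differ between dyes in the same way in every pair.

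Of the Hedgehog genes, Shh, the ligand, gave the clearest dye difference. Its 6 arrays with the transgenic sample in Cy3 lay between 0.04 and 0.77 and those with it in Cy5 between -0.84 and -0.36, so no pair had the same sign on both arrays. The orientations lay on average 0.50 either side of the pair value, farther than for 96.9% of features. The pair values, in which a constant dye difference cancels, were 0.13, 0.11 and 0.03 in 4-month pairs 1, 3 and 5, and -0.22, -0.07 and -0.26 in 10-day pairs 11, 13 and 15. The ages did not overlap, which held for 10.4% of features, and had opposite signs, which held for 2.63%, but all values were under 0.3 in size. The SD over pairs, 0.17, was 1.05 times the technical SD. The 4-month mean was 0.09 (SE 0.09) and the 10-day mean -0.18 (SE 0.09), with adjusted p of 0.712 and 0.681 in limma. The Shh spots were dim, brighter than only 10.9% of spots.

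Ptch1, the Shh receptor and a target of the pathway, was measured by 2 probes that disagreed. The probe AK020715 was positive in 6 of 6 pairs, at 0.51, 0.45 and 0.23 in 4-month pairs 1, 3 and 5, and at 0.49, 0.40 and 0.10 in 10-day pairs 11, 13 and 15. The probe NM_008957 was at 0.05, -0.25 and 0.06 in the 4-month pairs and at -0.06, -0.21 and -0.48 in the 10-day pairs. AK020715 was positive on both arrays of every pair, and its spots were brighter than 81.3% of spots, those of NM_008957 than 35.7%. Tested on their own, the probes had means of 0.36 and -0.15 over the 6 pairs. Their unadjusted p was 0.00249 and 0.127 in limma, and their adjusted p 0.102 and 0.448. Their average, the value used for the gene, was positive on both arrays in 5 pairs and negative on both in pair 15. It had a mean of 0.11 (SE 0.08, 95% interval -0.07 to 0.29, adjusted p = 0.56 in limma), with 0.18 at 4 months and 0.04 at 10 days. The 10-day mean was -0.05 without pair 11 and 0.16 without pair 15, and -0.00 with arrays centred on their median.

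Gli1, the transcription factor that is also a direct readout of Hedgehog signalling, had the mean farthest from zero after Wnt4. It was at 0.75, -0.05 and 0.27 in 4-month pairs 1, 3 and 5, and at 0.18, 0.00 and 0.37 in 10-day pairs 11, 13 and 15. Its mean of 0.25 (SE 0.11, 95% interval -0.00 to 0.51) had an unadjusted p of 0.0527 and, adjusted in limma, of 0.34. The value of pair 1 came from the array with the transgenic sample in Cy5, at 1.57, while the array with it in Cy3 was at -0.07. With arrays of the Cy3 orientation alone the mean over 6 pairs was 0.00, and with those of the Cy5 orientation alone 0.50 (neither past the threshold). The orientations coincide with the dates in the labels and with a different form of the deposited ratios, so dye, date and form cannot be told apart. Without pair 1 the mean was 0.15. Only 3 of 6 pairs had the same sign on both arrays, and the SD over pairs (0.29) was 0.927 times the technical SD.

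Among the other Wnt genes, Axin2, a negative regulator that beta-catenin itself switches on, was at 0.01, -0.43 and 0.16 in 4-month pairs 1, 3 and 5, and at 0.35, -0.09 and 0.27 in 10-day pairs 11, 13 and 15. The ages overlapped, the lowest value was that of pair 3, and the sign was the same on both arrays in 5 of 6 pairs. Its SD over pairs of 0.28 was 2.39 times the technical SD. The 4-month mean was -0.09 (SE 0.14) and the 10-day mean 0.18 (SE 0.14), with adjusted p of 0.832 and 0.79 in limma. Without pair 3 the 4-month mean turned to 0.08, and without pair 13 the 10-day mean was 0.31 and without pair 11 it was 0.09. With arrays centred on their median the 10-day mean was -0.01. Axin2 and the Ctnnb1 transcript did not run together in every pair. In pair 11, with the lowest Ctnnb1, Axin2 was highest, and in pair 3, with Ctnnb1 at 0.66, it was lowest. In pair 15, with Ctnnb1 highest at 0.67, Axin2 was also high. Their relation was not tested, and beta-catenin protein was not measured.

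Lef1, a nuclear partner of beta-catenin that is also abundant in lymphocytes, was the only gene of the 9 with the same sign in all 6 pairs, which held for 10.4% of features. It was at 0.10, 0.09 and 0.18 in 4-month pairs 1, 3 and 5, and at 0.07, 0.04 and 0.10 in 10-day pairs 11, 13 and 15. These values are averages of opposite arrays, from -0.67 to -0.41 with the transgenic sample in Cy3 and between 0.54 and 0.84 with it in Cy5, and the distance of the orientations from the pair value, 0.61, was larger than for 98.6% of features. Its SD over pairs, 0.05, was 0.451 times the technical SD. The mean was 0.10 (SE 0.06, adjusted p = 0.523 in limma). In pair 3 the lymphocyte markers had a median of -1.98, and their part in the value of Lef1 was not tested. Its spots were brighter than only 19.1% of spots.

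Fzd1, a Wnt receptor, was at -0.28, 0.03 and -0.04 in 4-month pairs 1, 3 and 5, and at -0.07, -0.01 and -0.07 in 10-day pairs 11, 13 and 15. Pair 1 was the lowest and was negative on both arrays, at -0.46 and -0.11. The mean was -0.07 (SE 0.07, adjusted p = 0.675 in limma), and without pair 1 it was -0.03.

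Apc, the scaffold of the beta-catenin destruction complex, had the smallest mean in size. The mean of its 3 probes was at -0.10, 0.06 and 0.00 in 4-month pairs 1, 3 and 5, and at 0.04, -0.05 and 0.04 in 10-day pairs 11, 13 and 15. Its arrays had opposite signs in every pair, and its mean of -0.00 had a 95% interval of -0.15 to 0.15 (adjusted p = 0.994 in limma). The probes spread more than their average: in pair 1 AK039745 was at 0.28, L19609 at -0.24 and NM_007462 at -0.33, and in pair 15 they were at -0.18, -0.09 and 0.38.

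**Figure D3:**
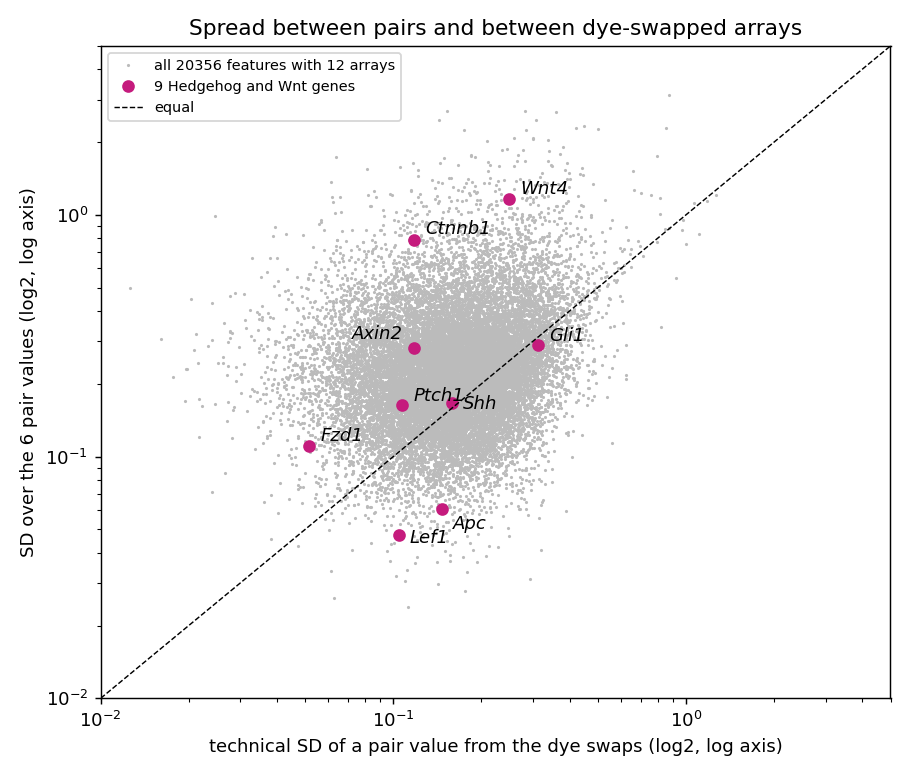
SD over the 6 pair values (vertical, log axis) against the technical SD of a pair value from the dye swaps (horizontal, log axis) for 20356 features, with the 9 genes marked and a dashed line of equality. Ctnnb1 and Wnt4 lie far above the line, at 6.70 and 4.67 times, while Lef1, Apc and Gli1 lie under it.

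The 9 genes thus differed in how far their arrays agreed. Wnt4 and Ptch1 had the same sign on both arrays in all 6 pairs, as 6.17% of features did, and these with Ctnnb1 and Axin2 had it in at least 5 pairs, as 20.6% of features did. Gli1 had it in 3 pairs, Fzd1 in 2, and Shh, Lef1 and Apc in 0. For Ptch1 the agreement is that of the average of its 2 probes, since NM_008957 alone had opposite signs on the arrays of pairs 1, 5 and 11.

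Whether the transgene's effect differed between the groups was tested as the 4-month minus the 10-day mean. None of the 9 genes passed, where 0% of features did (982 of 21513 at an unadjusted p under 0.05, 4.56%, and 0 of the 9). The difference was positive for 4 of the 9 and for 50% of features. The difference was -1.28 for Wnt4 (SE 0.62, 95% interval -2.71 to 0.16, adjusted p = 0.933 in limma), and it was -0.66 without pair 15 and -0.73 without pair 1. For Shh it was 0.27 (SE 0.13, adjusted p = 0.933 in limma), for Axin2 -0.26 (SE 0.20), and for the other 6 genes between -0.07 and 0.14.

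The sexes were compared with 2 female and 4 male pairs in a model with group and sex. Wnt4 had a female minus male difference of 1.45 (SE 0.43, 95% interval 0.44 to 2.46), with an unadjusted p of 0.0111 and an adjusted p of 0.798 in limma, where 5.76% of features had an unadjusted p under 0.05. The female pair was highest in each age, at -0.40 in pair 5 against -2.19 and -0.70 in the male pairs of 4 months, and at 1.41 in pair 15 against -0.75 and -0.12 in the male pairs of 10 days. Without pair 15 the difference was 1.05. For the other 8 genes it lay between -0.20 for Ptch1 and 0.55 for Ctnnb1, with none past the threshold. It was positive for 7 of the 9 and for 49.7% of features, and no feature passed (0%).

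Over the 6 pairs, the genes most like Wnt4 by Pearson correlation among 17047 others were Prmt2 and Dctpp1 (both r = 0.999), and those most like Ctnnb1 were Rab10 (r = 0.997) and Stk11 (r = 0.991). For Shh they were 4930417O13Rik (r = 0.990) and Ddx21 (r = 0.984), for Ptch1 Abhd16b (r = 0.995) and Zfp146 (r = 0.993), and for Gli1 Krt14 (r = 0.994) and Ppargc1a (r = 0.993). For Axin2 they were Rapgef1 (r = 0.995) and Ap1s3 (r = 0.992), for Lef1 Olfr414 (r = 0.990) and Slc12a3 (r = 0.982), for Fzd1 Myl3 (r = 0.995) and Mier2 (r = 0.990), and for Apc Crocc (r = 0.997) and Bbc3 (r = 0.996). These are descriptions over 6 points that share arrays, and even Lef1 and Apc, whose pairs differed by less than the technical spread, had such neighbours.

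Of 26 other Hedgehog genes listed by role, 23 were tested and 0 passed in any comparison, by limma over all features. Over all 6 pairs 16 were negative and 7 positive, their median being -0.06, against -0.01 for all features, and 47.1% of all features were positive. An unadjusted p under 0.05 was found for 5 genes, 3 positive and 2 negative, where 15% of all features had one. The list of ligands and their release held 4 of these, the ligand Dhh and the release or processing genes Hhat, Disp1 and Scube2. Hhat, which palmitoylates Hedgehog ligands, was at 0.35, 0.31 and 0.53 in 4-month pairs 1, 3 and 5, and at 0.84, 0.79 and 0.43 in 10-day pairs 11, 13 and 15, with a mean of 0.54 (SE 0.08, adjusted p = 0.0761). All 6 pairs were positive and the ages overlapped. The same sign in all 6 pairs held for 10.4% of all features. For genes named by their smallest p over these pairs, here and below, it is favoured by that choice. Scube2, which helps release the ligand, was at -1.27, -1.33 and -0.45 in 4-month pairs and at -0.82, -0.23 and -0.13 in 10-day pairs, with a mean of -0.70 (SE 0.14, adjusted p = 0.099). All 6 pairs were negative, the widest being both male pairs of 4 months. The ligand exporter Disp1 was at 0.37 (SE 0.10) and positive in 6 of 6 pairs, and the ligand Dhh, a product of Schwann cells in nerve, at -0.35 (SE 0.15), with -1.28 in pair 3.

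Among receptors and intracellular genes, the activator Smo was at 0.01 (SE 0.13), the co-receptor gene Boc at -0.36 (SE 0.22) with -1.45 in pair 1, and the co-receptor gene Gas1 at -0.22 (SE 0.15). The fifth gene with an unadjusted p under 0.05 was Ift88, which encodes a transport protein of the primary cilium, at 0.37 (SE 0.10, adjusted p = 0.166) and positive in 6 of 6 pairs. The mesenchymal targets Foxf1, Foxf2 and Foxl1 were at -0.07, -0.06 and 0.07.

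Of 83 other Wnt genes, 78 were tested and 0 passed in any comparison in limma. Over all 6 pairs 43 were negative and 35 positive, their median of -0.01 being that of all features, and 8 had an unadjusted p under 0.05, 2 positive and 6 negative, a smaller share than the 15% of all features. Among 18 ligands, Wnt5b was at -0.44, -0.09 and -0.55 in 4-month pairs 1, 3 and 5, and at -0.39, -0.43 and -0.93 in 10-day pairs 11, 13 and 15. All 6 pairs were negative, with a mean of -0.47 (SE 0.10, adjusted p = 0.104), where 10.4% of all features had the same sign in all 6 pairs. Wnt2 was at -0.46 ± 0.09 at 4 months and -0.04 ± 0.16 at 10 days (SD, n = 3), and Wnt2b at 0.64 ± 0.26 at 4 months and -0.25 ± 0.35 at 10 days (SD, n = 3). The ages did not overlap for Wnt2 or Wnt2b, which held for 10.4% of all features. The Wnt2b difference of 0.88 had an unadjusted p of 0.00397 in limma and an adjusted p of 0.933, where 4.56% of features had an unadjusted p under 0.05. Of the R-spondins, which strengthen Wnt signalling, Rspo1 was at -0.10 (SE 0.09) and Rspo2 at 0.05 (SE 0.07).

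Of the secreted inhibitors, Frzb, which binds Wnt ligands, was at -0.50, -1.62 and -2.24 in 4-month pairs 1, 3 and 5, and at -0.09, 0.97 and 0.46 in 10-day pairs 11, 13 and 15. All 4-month pairs were lower than all 10-day pairs, and 10.4% of features had ages that did not overlap. The difference was -1.90 (unadjusted p = 0.00277 and adjusted p = 0.933 in limma), where 4.56% of features had an unadjusted p under 0.05. Sfrp1, of the same family, was at 0.45, 1.89 and 1.34 in 4-month pairs and at 0.03, -1.23 and 1.46 in 10-day pairs, with a mean of 0.66 (SE 0.32, adjusted p = 0.386). The cell-cycle gene Ccnd1, a common target, was negative in 6 of 6 pairs at -0.27 (SE 0.08, adjusted p = 0.193), and the target genes Nkd1 and Tnfrsf19 were at 0.11 and -0.05. Of the nuclear genes, Tcf7l2 was at -0.25 (SE 0.21) with -1.52 in pair 11, and Bcl9 at 0.34 (SE 0.17). The largest SD over pairs in these lists was that of Apc2, a relative of Apc named after its values were seen, with 3.45 in pair 3 and -1.30 in pair 1 (SD 1.75, mean 0.12, SE 0.56). The kinase genes Csnk1a1 and Csnk1e were at 0.20 (SE 0.08) and -0.35 (SE 0.13).

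**Figure D4:**
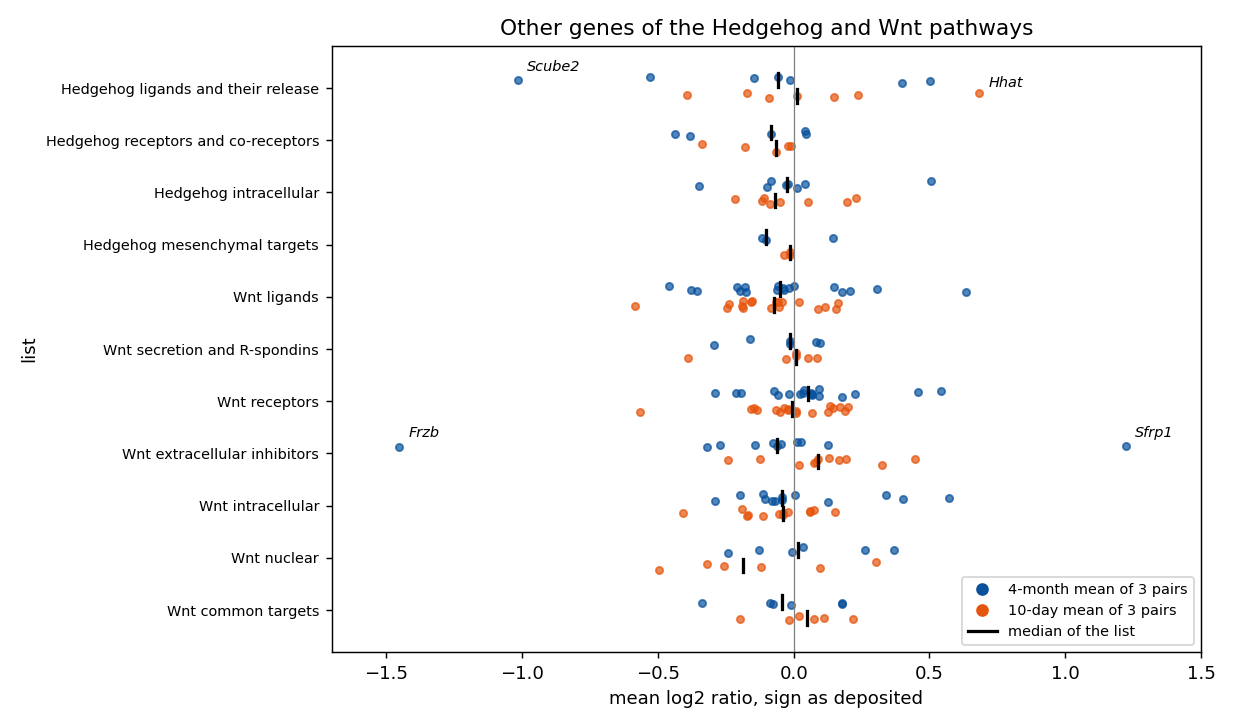
Mean log2 ratio (horizontal axis, sign as deposited) of each other Hedgehog and Wnt gene by role, at 4 months (blue, upper row) and 10 days (orange, lower row), with black bars for the median of the list. Most lie within 0.5 of zero, and Frzb, Sfrp1 and Scube2 at 4 months lie farthest out.

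Genes that mark the zones and the capsule were set beside the 9 genes. Of the zona glomerulosa, Cyp11b2, the aldosterone synthase gene, was at -0.65, -0.05 and 0.04 in 4-month pairs 1, 3 and 5, and at -1.35, -0.70 and 0.53 in 10-day pairs 11, 13 and 15. Dab2, another marker of that zone, was at 0.33, 0.04 and -0.08 in 4-month pairs and at -1.31, -0.01 and 0.54 in 10-day pairs. The median of 4 glomerulosa markers was lowest in pair 11 (-0.97) and highest in pair 15 (0.49), the pairs with the lowest Ctnnb1 and the highest Wnt4. At 4 months Wnt4 was at -2.19 in pair 1, where that median was -0.25. Not all 4 markers followed their median. Agtr1a was at -0.64 in pair 11, at -0.31 in pair 15 and highest in pair 3 (0.61). Agtr1b was at -0.05 in pair 11 and 0.45 in pair 15. Of 8 markers of the capsule and mesenchyme 6 had a negative mean, their median being -0.11, and the pair medians lay between -0.29 in pair 11 and 0.20 in pair 15. Single genes differed more between pairs 11 and 15, with Dcn at -1.46 and 1.49, Igf2 at -0.56 and 1.24 and Gpc3 at -0.63 and 0.85. Col1a1 and Acta2 went the other way, at 0.06 and -0.44 and at 0.04 and -0.16. The capsular transcription factor gene Tcf21 was at 0.02 and Nr0b1, which encodes the nuclear receptor DAX-1, at -0.40 (SE 0.12, adjusted p = 0.197 in limma). The cortical gene Cyp21a1 was at -1.41, 1.64 and 0.75 in 4-month pairs and at -3.18, -3.96 and 0.25 in 10-day pairs. Of the zona fasciculata only Mc2r, Hsd3b1 and Abcb1b were tested. The ACTH receptor gene Mc2r was at -0.10 (SE 0.14) and Hsd3b1 at -0.05 (SE 0.08). Abcb1b was at -2.13, -0.78 and -0.77 in 4-month pairs 1, 3 and 5. In 10-day pairs 11, 13 and 15 it was at -0.24, 0.53 and -0.01. Its mean was -0.57 (SE 0.19, adjusted p = 0.24 in limma), and the ages did not overlap, which held for 10.4% of features. The X-zone markers Akr1c18 and Pik3c2g were at -2.56 and -5.77 in pair 5, at -1.47 and -1.92 in pair 11 and at -0.27 and -0.90 in pair 13. In pairs 1, 3 and 15 Akr1c18 was at 0.07, 0.18 and 0.56 and Pik3c2g at 0.26, 0.03 and -0.12. The part of any of these markers in the values of the 9 genes was not tested.

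**Figure D5:**
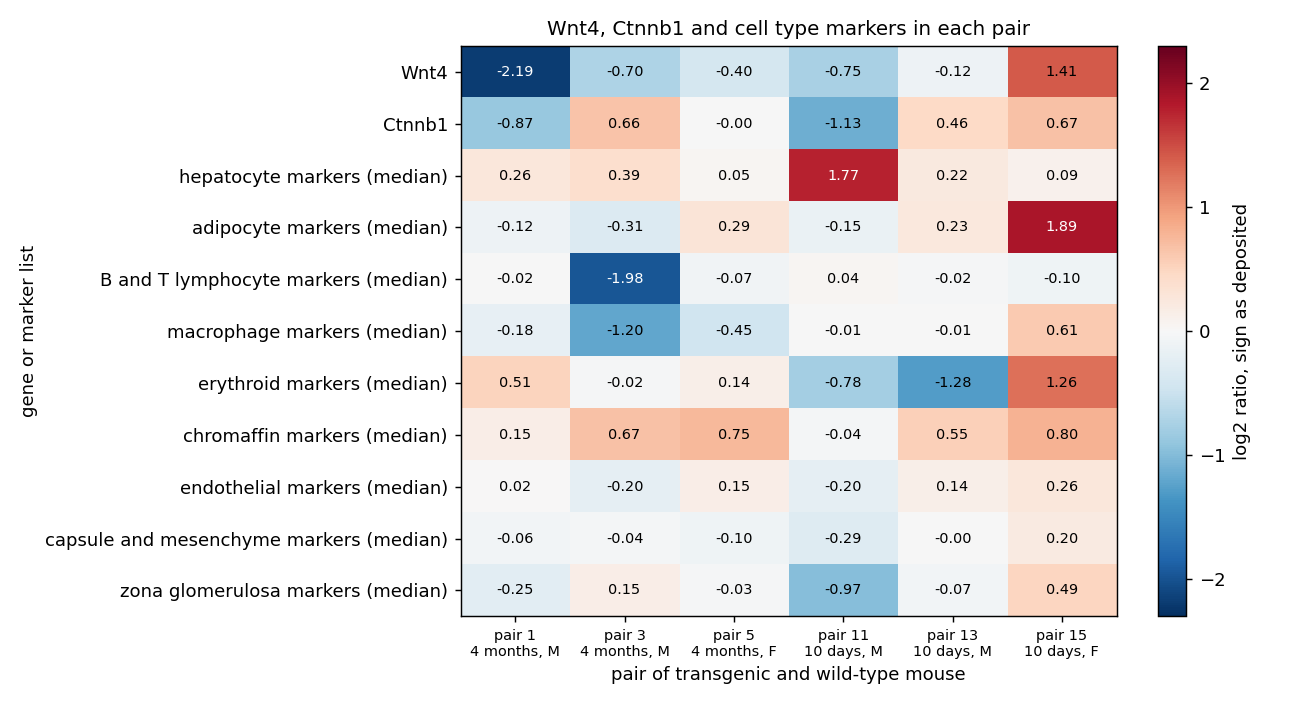
Log2 ratio (colour and number, sign as deposited) of Wnt4 and Ctnnb1 and median log2 ratio of cell type marker lists in each pair. The hepatocyte median is high in pair 11 (1.77), the adipocyte median in pair 15 (1.89) and the lymphocyte median low in pair 3 (-1.98), while Wnt4 is lowest in pair 1 (-2.19) and Ctnnb1 in pair 11 (-1.13).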

How the data were processed

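The deposited table holds log2 ratios of the 2 channels, 25344 spots on each of 12 arrays. Per the labels, nothing is stated of the authors' background subtraction, normalization or scanner. For the 6 arrays labelled with Cy3 on transgenic RNA, the unlogged values could be written as quotients of integers up to 65535 for 100% of spots (relative tolerance 1e-13). On the swapped arrays only 0.31% to 0.50% of spots could be so written. The orientations were thus deposited in different forms, for a reason the labels do not state. Spot signal, up to a common factor, came from the 6 arrays with Cy3 on transgenic RNA, as the 75th percentile of the geometric mean of their integers. Array medians lay between -0.68 and -0.22 for those arrays and between 0.74 and 1.50 for the swapped ones, so each array was corrected by loess on signal (span 0.3). No background values were used, and precision is limited by how few arrays there are.

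Probes with 1 gene (21082) were named through the platform annotation with RefSeq symbols, 30 with several and 4232 without a gene staying unnamed. Probes of a gene were averaged, then the dye-swapped arrays of a pair. Features with at least 2 pairs in each group (21513) were fitted in limma 3.58.1 (R 4.3.3) with a mean per group, two-sided, Benjamini-Hochberg over all features, 4 residual and 3.85 prior degrees of freedom. The sex fit added a sex term. The technical SD is that of the halved differences between dye-swapped arrays over the 6 pairs. The procedure was tested on simulated data. The genes and lists were chosen with earlier results of these data known. Named were the 9 genes, in each wider list the 2 positive and 2 negative genes of smallest p, of which some are left out of the text, zone markers and the 2 most alike genes.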

Additional observations from a re-analysis of the deposited data

Results flagged for a closer look

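Shh was flagged because its 3 pairs of 4 months were all positive and its 3 pairs of 10 days all negative, which held for 2.63% of features in either direction. The 4-month minus 10-day difference was 0.27, with means of 0.09 and -0.18, an unadjusted p of 0.0757 and an adjusted p of 0.933 in limma. Every pair value averages arrays of opposite sign, and the difference was 0.45 from the Cy3 orientation of the transgenic RNA alone and 0.10 from its Cy5 orientation alone. The part of dye, date, deposited form and dim spots in it was not tested.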

How the results depend on the processing

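Leaving out single pairs called none of the 9 genes in any comparison, nor did centring arrays on their median, a loess span of 0.5, a sex term, the ordinary linear model or the filters on probes, which for Shh and Lef1 excludes the filter on dim probes, where neither was tested. Of 147 values of the 9 genes over all 6 pairs under the alternatives, 6 passed the threshold, 132 of the others moved by less than the SD between pairs, and 20 of all changed sign. Calls came from single dye orientations or uncorrected arrays. With the transgenic sample in Cy3 alone, Shh was at 0.45 and Lef1 at -0.51 over all 6 pairs, both past the threshold and opposite in sign to the averages of both dyes, and with it in Cy5 alone at -0.54 and 0.70, again past it. Without correction Gli1 at 0.48 and Lef1 at 0.44 passed too. At 4 months Shh passed in the Cy3 orientation (0.67), Lef1 in the Cy5 orientation (0.77) and Gli1 without correction (0.65). Counts of features past the threshold over all 6 pairs were 12, and 0 after median centring or with sex, 1 in the ordinary model, 54 with each probe on its own, 1411 and 3439 in the Cy3 and Cy5 orientations alone, 5964 without correction, and 0 to 15 without single pairs (0 without pair 1, 3, 13 or 15, 4 without pair 11). At 10 days they were 31, 222 and 18 in the orientations and without correction, and 0 to 1 without single pairs (1 without pair 11). At 4 months they were 288, 915 and 2548, and 0 to 5 (5 without pair 5). For the difference between the groups 16 features passed without correction, and between the sexes 79 did, with 1 in the ordinary model and 0 to 3 without single pairs (3 without pair 15). No paired analysis was possible because the groups share no replicate numbers, each pair being already a matched ratio.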
